A study of Bos taurus with 15 samples.

Results

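The enzymes that supply NADPH in the cytosol of fat cells were listed by symbol, 7 in all (IDH1, PGD, H6PD, ME1, PGLS, TKT and TALDO1), and a gene was kept when its symbol stood in all 6 of the comparison tables deposited for the series. Of the 13896 genes in those tables, 6 were members, and H6PD was not analysed here. The rule used symbols and no measured values, but the list was drawn up with earlier results of these data known. Subcutaneous adipose tissue, taken by biopsy from the dewlap of primiparous Prim Holstein cows, was the source of total RNA for 15 libraries, 3 in each of 5 groups. The first group, called -4 wkpp (weeks peripartum), was sampled one month before calving, before the diets began. The SNEB cows (severe negative energy balance) received the low-energy LE diet and the MNEB cows (moderate negative energy balance) the high-energy HE diet, each from one month before calving onwards, and both groups were sampled at 1 and at 16 wkpp. The cows of the 2 NEB groups were picked for extreme energy balance after calving, so that they stand for the ends of the range and not for its middle. By the methods of the study each cow gave a biopsy at every time, so that the libraries of a NEB group at 1 and 16 wkpp come from the same cows, and those at -4 wkpp may come from cows of these groups. Nothing in the labels ties a library to a cow, so that every test took the libraries as independent and its p-values measure the spread between them.

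NADPH is the electron donor that fatty acid synthase spends at each round of chain elongation, and the enzymes that keep glutathione and thioredoxin reduced draw on the same pool. In the oxidative branch of the pentose phosphate pathway, PGLS opens a lactone ring and PGD then reduces NADP as it releases a carbon. TKT and TALDO1 form the non-oxidative branch, which makes no NADPH itself but returns pentose phosphates to glycolysis or lets the oxidative branch run again. Outside that pathway IDH1 reduces NADP while it oxidises isocitrate in the cytosol, and ME1 does so while it converts malate to pyruvate. H6PD works within the endoplasmic reticulum, not in the cytosol. In ruminant adipose tissue, which builds fatty acids mostly from acetate, isocitrate dehydrogenation is known as a major source of NADPH beside the pentose phosphate pathway.

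The libraries of the MNEB cows stood apart from the others before any gene was compared. They held 1942303 to 7198774 reads on exons, against 7269999 to 13677622 in the other 9 libraries, and 3570456 to 14319547 against 18253178 to 29876053 reads on entire genes. By the read statistics of the study, the MNEB libraries were sequenced about as deeply as the others. A smaller share of reads aligned uniquely in each of them. What lies behind this was not tested, and against other groups it cannot be told apart from the NEB group. Depth below means reads counted on genes, not reads sequenced. Synthetic spike-in RNAs made up 17.8 to 63.7% of exonic reads in the MNEB libraries and 1.38 to 10.0% in the others. Counts were scaled on the genes (median of ratios), which sets the typical gene level across libraries. Scaling on the spike-ins instead would add 3.52 to every log2 difference of -4 wkpp over MNEB 1 wkpp, 3.55 to SNEB over MNEB at 1 wkpp and 4.19 to SNEB over MNEB at 16 wkpp, and would move the 3 comparisons that remain by -0.02 (-4 wkpp over SNEB 1 wkpp), -0.41 (MNEB 1 over 16 wkpp) and -1.06 (SNEB 1 over 16 wkpp). The make-up of the spike-ins also differed between groups: ERCC-00130, one of these RNAs, gave 28.1 to 36.0% of spike-in reads in the 9 libraries of -4 wkpp, MNEB 1 wkpp and SNEB 16 wkpp and 7.11 to 9.76% in the 6 of SNEB 1 wkpp and MNEB 16 wkpp. Of the 6 shifts, all but that of -4 wkpp over MNEB 1 wkpp therefore set groups of unlike spike-in make-up against each other, and how far this moved them was not tested. The differences below are differences relative to the typical gene in the libraries. Libraries are numbered within a group from the most (1) to the fewest (3) exonic reads, and the numbers tie no library of one group to a library of another.

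IDH1 was highest at -4 wkpp, and its level in the 4 groups after calving was 25.4 to 49.0% of the level before. The exonic normalized counts of IDH1 were 2463, 2475 and 2416 at -4 wkpp, a mean of 2451 ± 31.1 (SD, n = 3). They were 755, 494 and 621 in MNEB at 1 wkpp (623 ± 130.3) and 1298, 1167 and 980.2 in MNEB at 16 wkpp (1148 ± 159.6). In SNEB they were 789, 1801 and 1013 at 1 wkpp (1201 ± 531) and 720.1, 1079 and 1342 at 16 wkpp (1047 ± 312). All 12 libraries after calving lay below the 3 before it, while each of the 4 groups after calving overlapped the next in the order of their means. Library 2 of SNEB at 1 wkpp was the highest library after calving. On entire gene counts, which include intronic reads, the order differed: MNEB at 16 wkpp came second with 2059 ± 325 behind -4 wkpp with 2949 ± 387, and MNEB at 1 wkpp stayed lowest with 969 ± 284.

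PGD, the decarboxylating dehydrogenase of the oxidative branch, showed the widest spread of group means among the members, from 21.4% of the level at -4 wkpp in MNEB at 1 wkpp to 73.1% in SNEB at 16 wkpp. At -4 wkpp its libraries held 2261, 1896 and 1968 exonic normalized counts (2042 ± 193). MNEB libraries held 484, 421 and 408 at 1 wkpp (438 ± 40.4) and 806, 503.7 and 747 at 16 wkpp (686 ± 160.2). The SNEB libraries held 789.7, 1843 and 704 at 1 wkpp (1112 ± 634) and 1418, 1398 and 1660.4 at 16 wkpp (1492 ± 146). The SNEB libraries at 16 wkpp lay above all 6 MNEB libraries and below the 3 at -4 wkpp on exons, while on entire gene counts (1836, 2136 and 2197) they overlapped those at -4 wkpp (2134 to 2756). At 16 wkpp, 22.1% of all genes had every SNEB library above every MNEB library on exons. In SNEB at 1 wkpp, library 2 reached the range seen before calving on entire gene counts (2737) but not on exons (1843). The other libraries of that group were at 1027 and 885 on entire gene counts.

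ME1, the malic enzyme of the cytosol, was counted with few exonic reads, 52 to 954 in a library. Its 3 libraries at -4 wkpp held 549, 356 and 711 exonic normalized counts (539 ± 177.9), those of MNEB at 1 wkpp 99.0, 229.5 and 191.1 (173 ± 67.1). The other groups lay at 255, 275 and 241 in MNEB at 16 wkpp, at 189, 284 and 246 in SNEB at 1 wkpp and at 231, 229 and 383 in SNEB at 16 wkpp. SNEB at 16 wkpp was the group after calving whose libraries overlapped those at -4 wkpp, through its library 3. PGLS, the lactonase, had the flattest profile, with group means of 188 to 239 and overlap between every pair of neighbours in the order. It was also shallow, with 61 to 506 exonic reads in a library.

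How far the means after calving lay below those at -4 wkpp differed between TKT (transketolase) and TALDO1 (transaldolase), as a description without a test. TKT held 4003, 3619 and 3921 exonic normalized counts at -4 wkpp (3848 ± 203) and 2214, 2112 and 1826 in MNEB at 1 wkpp (2051 ± 201), which was 53.3% of the level before calving. TALDO1 held 3188, 3049 and 2891 at -4 wkpp (3043 ± 149) and 807, 816 and 1213 in MNEB at 1 wkpp (945 ± 232), or 31.1%. In the 3 groups that remain, TKT means were 72.1 to 80.9% and TALDO1 means 46.3 to 55.3% of those at -4 wkpp. For both genes every exonic library after calving lay below every library before it. For IDH1, PGD, TKT and TALDO1 alike, library 2 was the highest of the 3 SNEB libraries at 1 wkpp. All 6 members had their lowest exonic mean in MNEB at 1 wkpp, and with total counts or spike-ins as library sizes the lowest group stayed the same. The highest group did not in all: with spike-ins as library sizes PGD (7685 against 4859 at -4 wkpp), ME1, TKT and TALDO1 had their highest mean in SNEB at 16 wkpp, as PGLS had in both scalings, and IDH1 stayed highest at -4 wkpp (5755 against 4834).

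**Figure D1:**
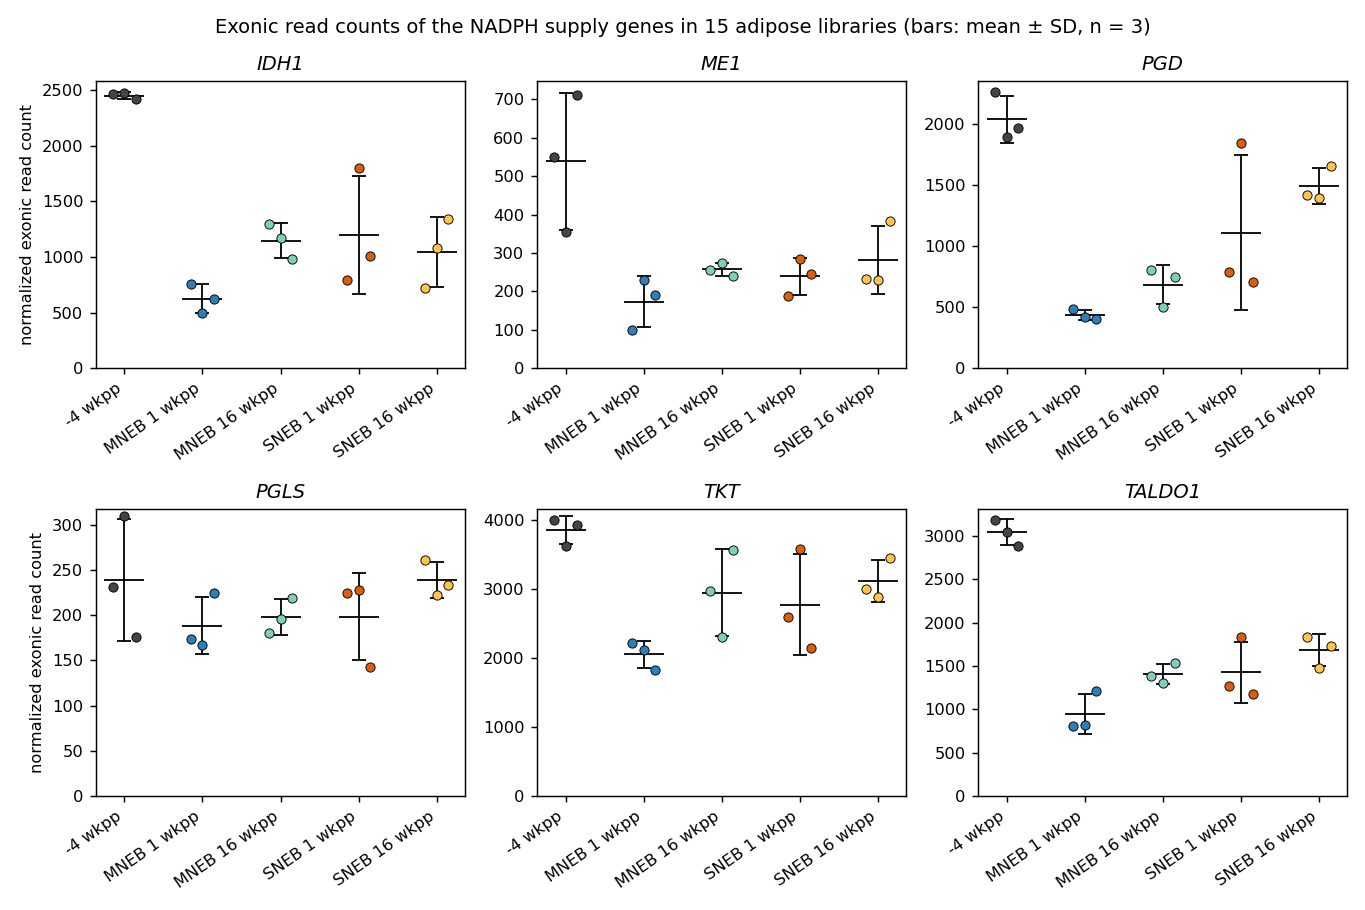
Exonic normalized counts of the 6 members in the 15 libraries by group (points are libraries, bars the mean ± SD with n = 3; the y axis is linear, in normalized exonic reads, and starts at 0 for each gene). IDH1, PGD, TKT and TALDO1 are highest in the 3 libraries at -4 wkpp with no overlap (with spike-ins as library sizes the mean of SNEB at 16 wkpp would be higher for all of these but IDH1), and the PGLS groups overlap those next to them in the order of their means.

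The comparison of -4 wkpp with MNEB at 1 wkpp sets tissue from before calving and before the diets against that of cows in moderate NEB after calving. The labels give no NEB group for the cows at -4 wkpp. A gene was called when its Benjamini-Hochberg adjusted p (limma with voom weights, 3 libraries against 3) was below 0.01 with the same sign on exonic and on entire gene counts, a rule met by 178 of 10386 genes (1.71%). The 2 analyses count largely the same reads (the exonic count was not above the entire gene count in 98.2% of values), so that they are not independent. PGD was the 1 member of 6 called, with a log2 difference of 2.21 ± 0.21 (SE) on exons (4.61-fold, adjusted p = 0.0001508) and 2.02 ± 0.23 on entire genes (adjusted p = 0.007813). IDH1 and TALDO1 passed on exons and missed on entire genes: IDH1 at 1.98 ± 0.22 (3.95-fold, adjusted p = 0.0003034) and 1.62 ± 0.27 (adjusted p = 0.01627), TALDO1 at 1.74 ± 0.22 (adjusted p = 0.0005004) and 1.66 ± 0.24 (adjusted p = 0.01129). ME1 at 1.83 ± 0.38 and TKT at 0.92 ± 0.19 also passed on exons (adjusted p = 0.005111 and 0.005567) but not on entire genes (adjusted p = 0.101 and 0.0395). PGLS differed by 0.37 ± 0.29 on exons (adjusted p = 0.37).

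On exonic counts alone, 5 of 6 members were thus higher at -4 wkpp with adjusted p below 0.01, against 7.15% of all genes in that direction, and the same 5 had every -4 wkpp library above every MNEB library, against 23% of all genes. Since the list was drawn up with results known, these shares describe the members and are no independent evidence. The median log2 difference of the 6 members was 1.78 on exons, and that of all genes tested 0.04. The call of PGD held without library 1 of MNEB at 1 wkpp (entire gene adjusted p = 0.006692, with 197 genes called in all) and was lost without any one of the other 5 libraries, with entire gene adjusted p from 0.02122 to 0.05982, exonic log2 differences of 2.14 to 2.26 and at most 3 genes called in all. In one fit over all 5 groups, 3 members and 1056 genes in all were called, with exonic log2 differences of 2.19 for PGD and 1.96 for IDH1. In the same fit without the 4 shallowest MNEB libraries (2 and 3 at both weeks), they were 2.04 for PGD (adjusted p = 0.0119) and 1.67 for IDH1 (adjusted p = 0.02064), and no member was called among 169 genes. MNEB at 1 wkpp is then 1 library, assumed to vary like the other groups.

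Marker levels of several cell types also differed between these groups. The 5 adipocyte markers measured of 8 listed summed to 26180 to 32518 normalized exonic counts at -4 wkpp and to 15786 to 23126 in MNEB at 1 wkpp, with CIDEC and LEP called higher at -4 wkpp. Not all went that way: the means of LIPE (3498 and 6829) and PNPLA2 (1964 and 2837) were lower at -4 wkpp, and neither was called. The 5 endothelial markers summed to 17439 to 22043 and 34251 to 61031, and the 8 skeletal muscle markers to 87.5 to 359 and 1175 to 4105, most of it TNNT3 (means of 205 and 2203). All 5 endothelial markers had lower values at -4 wkpp. ROBO4 (means of 1130 and 7346) was called lower there, a direction that spike-in scaling would turn. VWF and TNNT3 passed on exons, also lower at -4 wkpp. The 6 macrophage markers measured of 7 gave 7680.5 to 14207 and 2409 to 8651, with C1QA passing on exons higher at -4 wkpp. None of these markers was at 0 in all libraries of either group. In bulk tissue, fewer cells of a type and less RNA per cell cannot be told apart, and the part of these shifts, or of the depth of the MNEB libraries, in the differences of the members was not tested.

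Between -4 wkpp and SNEB at 1 wkpp, no member was called, where 4 of 10569 genes (0.0378%) were, and 83 genes without library 2 of SNEB. The exonic log2 differences were 1.12 ± 0.28 for IDH1 (adjusted p = 0.09516), 1.12 ± 0.28 for ME1 (adjusted p = 0.09593), 1.12 ± 0.20 for TALDO1 (adjusted p = 0.03093), 1.01 ± 0.34 for PGD (adjusted p = 0.203) and 0.51 ± 0.21 for TKT (adjusted p = 0.3092). PGLS was at 0.28 ± 0.27. The 5 members other than PGLS had every -4 wkpp library above every SNEB library on exons, a pattern that 10.4% of all genes showed. Both comparisons share the libraries at -4 wkpp, so that their values are given side by side and not as independent results. Without library 2 of SNEB at 1 wkpp, the highest of its group for both genes, the difference was 1.45 for IDH1 and 1.44 for PGD, and no member was called. IDH1, PGD and TALDO1 then passed on exons alone (adjusted p = 0.002572, 0.002582 and 0.002986). The adipocyte markers summed to 34223 to 39952 in SNEB at 1 wkpp, above the range at -4 wkpp, although the means of CIDEC (7233 and 5046) and LEP (1284 and 491) were higher at -4 wkpp. The endothelial markers summed to 28101 to 33518 in SNEB, against 17439 to 22043, and the 6 macrophage markers to 10261 to 21773, each with a higher value in SNEB and CD163 passing on exons. Their part in the differences of the members was not tested.

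**Figure D2:**
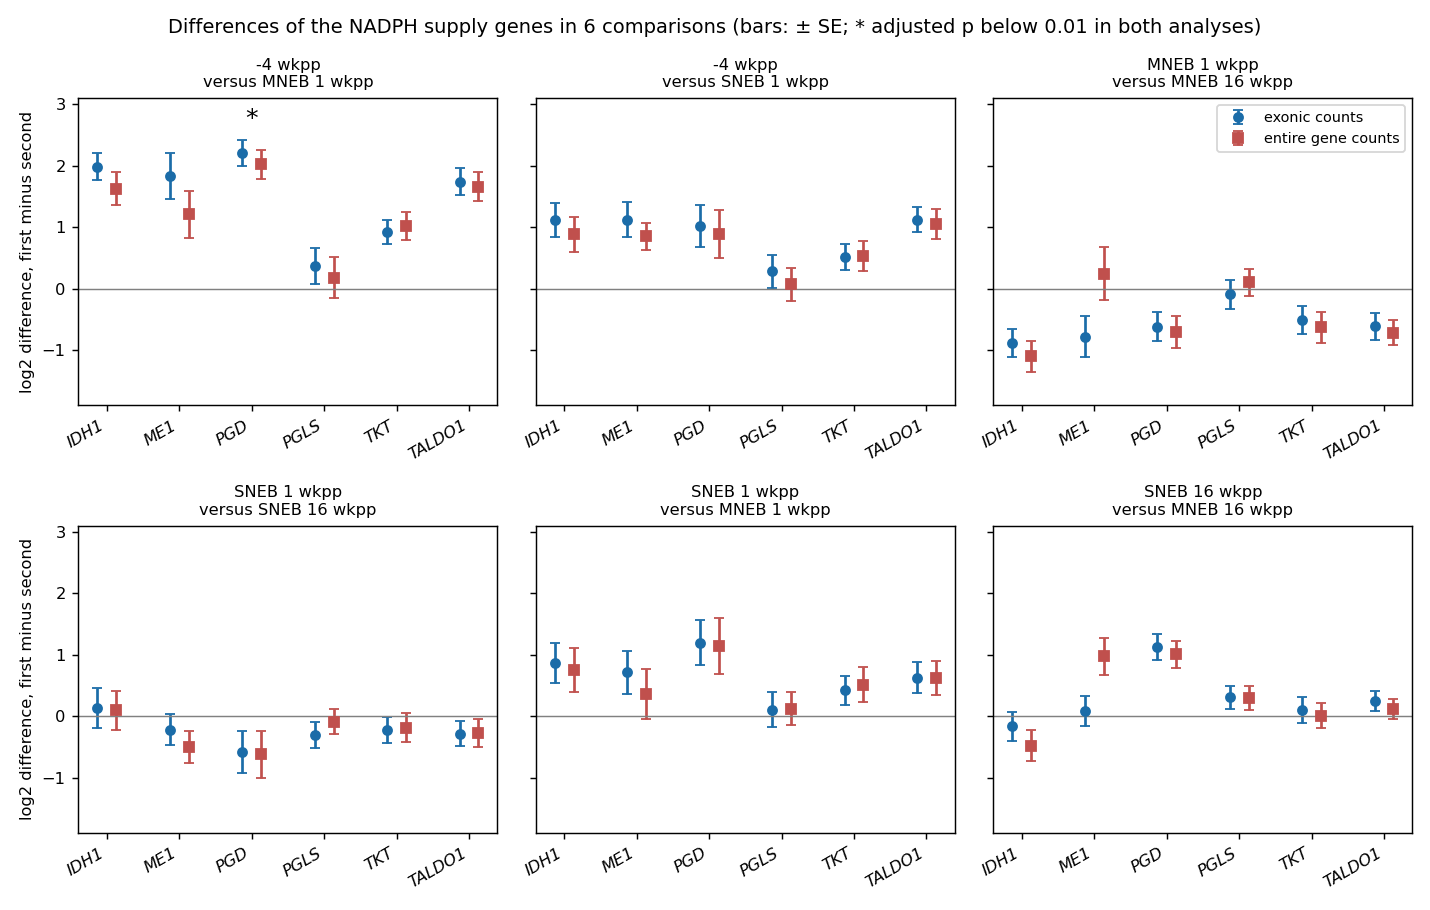
Log2 differences (first group minus second) of the 6 members in the 6 comparisons, on exonic and on entire gene counts, with bars of ± SE. The members lie above 0 in both comparisons of -4 wkpp with 1 wkpp, by up to 2.21 for PGD, where the asterisk marks the 1 member called, and between -0.62 and 0.13 in SNEB 1 against 16 wkpp.

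From 1 to 16 wkpp no gene was called in either NEB group (0% of 9773 genes in MNEB and 0% of 10467 in SNEB, limma), although 13.5% and 7.18% of genes had an unadjusted exonic p below 0.05. The count was also 0 with limma on log2 values of normalized counts plus 1 or 10. In MNEB cows all 6 members had lower exonic values at 1 wkpp than at 16 wkpp, with a median log2 difference of -0.62 against 0.00 for all genes. IDH1 differed by -0.89 ± 0.23 (unadjusted p = 0.004128, adjusted p = 0.2334), with an entire gene value of -1.10 ± 0.25 (adjusted p = 0.2947). PGD and TALDO1 were each at -0.62 (adjusted p = 0.3258 and 0.3065), and TKT was at -0.52 (adjusted p = 0.3682). In the 5 members other than PGLS the 3 exonic libraries at 1 wkpp lay below the 3 at 16 wkpp, as in 10.2% of all genes. ME1 was at -0.78 on exons and at 0.24 on entire genes, and PGLS at -0.10 and 0.10, so that their direction depended on which reads were counted. Without library 1 of MNEB at 1 wkpp the exonic value of ME1 was -0.29. Over all settings tried, the entire gene value of ME1 ranged from -1.01 to 0.69, so that its direction depended on the setting too. The adipocyte and endothelial markers went the other way, all 5 of each list with higher values at 1 wkpp (median log2 differences of 0.48 and 0.60), as did 5 of the 6 macrophage markers (0.78), and none was called.

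In SNEB cows the 6 members had a median exonic log2 difference of -0.25 between 1 and 16 wkpp, against -0.01 for all genes. All 5 adipocyte and all 5 endothelial markers had higher values at 1 wkpp (0.67 and 0.47), whereas 5 of the 6 macrophage markers had lower ones (-0.54), and none was called. Spike-in scaling (of unlike make-up) would turn the adipocyte and endothelial medians. Among the members PGD had the largest difference, -0.58 ± 0.34 (adjusted p = 0.7023). It was -1.02 (adjusted p = 0.04937) without library 2 of SNEB at 1 wkpp and -0.32 without library 3 of that group. IDH1 stood at 0.13 ± 0.33 (adjusted p = 0.9237). The value of IDH1 turned to -0.20 without library 2 of SNEB at 1 wkpp and to -0.11 without library 1 of SNEB at 16 wkpp, and it would be negative under spike-in scaling, where the spike-in make-up of the 2 groups was unlike. The change of IDH1 from 1 to 16 wkpp differed between the NEB groups by 1.02 ± 0.43 on exons (unadjusted p = 0.03354, adjusted p = 0.9885) and by 1.18 ± 0.46 on entire genes (adjusted p = 0.9919). No gene passed that test of the difference (0% of 10220; 4.93% had an unadjusted exonic p below 0.05), and the other 5 members had adjusted p of 0.9916 or more on exons.

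At 1 wkpp, SNEB and MNEB cows were compared to ask how the severity of NEB bears on the tissue. No member and no gene was called (0% of 10341 genes in limma, also on log2 values plus 1 or 10; 32.3% had an unadjusted exonic p below 0.05), while 443 genes were called without library 1 of MNEB at 1 wkpp and 303 in one fit over the 5 groups, which became 0 in that fit without the 4 shallowest MNEB libraries. All 6 members had higher exonic values in SNEB, with a median log2 difference of 0.67 against 0.07 for all genes. PGD stood highest at 1.20 ± 0.37 (adjusted p = 0.05762), followed by IDH1 at 0.87 ± 0.33 (adjusted p = 0.1044) and ME1 at 0.71 ± 0.35 (adjusted p = 0.1896). PGD and IDH1, 2 of 6 members against 19.1% of all genes, had every SNEB library above every MNEB library on exons, the lowest SNEB values (704 and 789) standing above the highest MNEB values (484 and 755). Without library 2 of SNEB at 1 wkpp the differences were 0.77 for PGD and 0.54 for IDH1, and without library 1 of MNEB that of ME1 was 0.19. Cell markers differed as well. The adipocyte markers, with sums of 34223 to 39952 in SNEB and 15786 to 23126 in MNEB, had a median log2 difference of 1.45, with CIDEC, LEP and PLIN1 passing on exons, while the mean of PNPLA2 was lower in SNEB (2110 and 2837) and that of LIPE close in both (6878 and 6829). The 6 macrophage markers, all with higher values in SNEB, had a median of 2.00. TNNT3 of the muscle markers (means of 222 in SNEB and 2203 in MNEB) and ROBO4 of the endothelial markers (1871 and 7346) passed on exons in the other direction. Set against the ratios of these means, the spike-in shift (of unlike make-up) would turn both directions. The part of the cell markers in the differences of the members was not tested.

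At 16 wkpp, 367 of 10131 genes (3.62%) were called between SNEB and MNEB cows, and 33 to 109 when any one of the 6 libraries was left out. None of the 6 members was called. PGD was 2.19-fold higher in SNEB on exons, a log2 difference of 1.13 ± 0.21 (adjusted p = 0.005733), and 1.01 ± 0.22 higher on entire genes (adjusted p = 0.02152), so that it passed on exons but not on entire genes. Of all genes, 3.37% passed the exonic test higher in SNEB, with or without the entire gene test. The exonic adjusted p of PGD stayed below 0.01 without library 1 of MNEB (0.009173) and was 0.01158 to 0.02017 without any other library, with log2 differences of 0.94 to 1.18. Over all settings tried, its exonic log2 difference ranged from 0.87 to 1.28. ME1 differed by 0.08 ± 0.25 on exons and by 0.98 ± 0.30 on entire genes (adjusted p = 0.06727). IDH1 was at -0.16 ± 0.24 (adjusted p = 0.6444), a sign that spike-in scaling (of unlike make-up) would turn, and PGLS, TKT and TALDO1 lay between 0.11 and 0.31. The median of the 6 members was 0.18, and that of all genes 0.03. The 6 macrophage markers summed to 18938 to 23446 in SNEB and 2413 to 3138 in MNEB at 16 wkpp, all 6 passing on exons and CD163 and CSF1R called, and the adipocyte markers to 20475 to 27897 and 7121 to 25358, with CIDEC passing on exons. TNNT3 (means of 287 in SNEB and 2823 in MNEB) and ROBO4 (1190 and 4057) were called lower in SNEB, directions that spike-in scaling would turn. What these cells contributed to the PGD difference was not tested.

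The share of a member's entire gene reads that fell on exons set how far the 2 analyses could part. It had a median of 90.5% over the 15 libraries for TALDO1, 80.1% for TKT, 75.1% for PGD, 68.6% for IDH1 and 61.0% for PGLS. For ME1 it was 16.5%, so that most of the reads assigned to ME1 were intronic in this total RNA. The ME1 share was 19.7, 41.3 and 28.9% in the 3 MNEB libraries at 16 wkpp and 12.2 to 20.2% in the other 12 libraries. The 3 libraries of IDH1 at -4 wkpp had 81.2, 80.6 and 76.8% of reads on exons, and the 12 after calving 52.9 to 75.3%. These ranges nearly met, and how common such a split was among all genes was not counted.

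**Figure D3:**
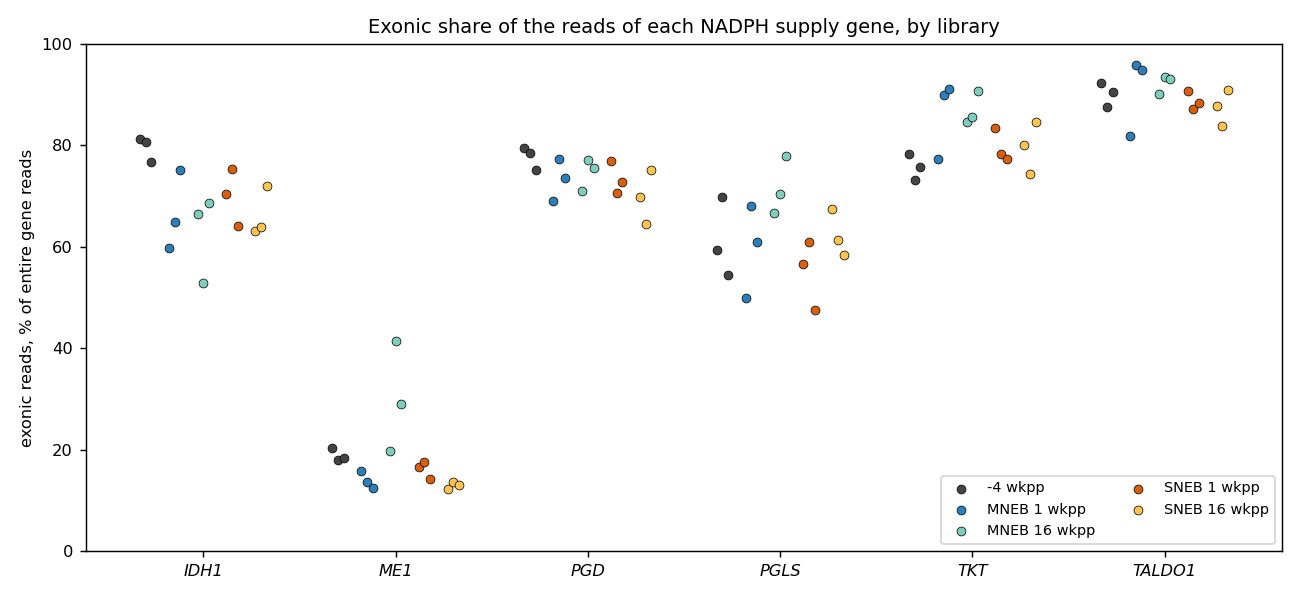
Exonic reads as a percent of entire gene reads for each member in the 15 libraries (points are libraries, by group; x axis, gene). ME1 lies at 12.2 to 41.3%, below the other members, and its highest values are MNEB libraries at 16 wkpp.

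Around the members, 48 related genes in 4 lists were followed, of which 46 were tested at -4 wkpp against MNEB at 1 wkpp. In that comparison 2 were called, both higher at -4 wkpp (1.71% of all genes were called), and on exons alone 10 were higher and 2 lower (7.15% and 9.34% of all genes). Among the 15 users of NADPH, FASN (fatty acid synthase) fell from 55676, 44088 and 50757 exonic normalized counts at -4 wkpp to 1688, 3578 and 4230 in MNEB at 1 wkpp (log2 difference 4.09 ± 0.31, adjusted p = 5.811e-05 on exons and 0.004824 on entire genes). It was the 1 related gene called against SNEB at 1 wkpp as well, at 4.98 ± 0.41 (adjusted p = 0.003306 and 0.006513). No FASN library after calving reached the lowest at -4 wkpp. Among the 9 tested genes that supply citrate, isocitrate and malate, SLC25A1, the citrate carrier of the inner mitochondrial membrane, was called at 2.39 ± 0.25 (adjusted p = 0.0002165 and 0.008664) between -4 wkpp and MNEB at 1 wkpp. The calls of FASN held without library 1 of MNEB at 1 wkpp, and against SNEB without library 2 of SNEB, and were lost without any other library, as was that of SLC25A1 without any one library. The exonic log2 differences moved little, over 3.72 to 4.34 and, against SNEB, 4.72 to 5.49 for FASN, and 2.25 to 2.58 for SLC25A1.

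None of the 11 other pentose phosphate genes tested was called in any comparison, and neither was any of the 11 other NADP enzymes. Between SNEB and MNEB at 16 wkpp the 1 related gene called was PC, the pyruvate carboxylase that feeds oxaloacetate, with a log2 difference of SNEB over MNEB of -1.68 ± 0.30 (adjusted p = 0.004892 and 0.007571), a direction that spike-in scaling (of unlike make-up) would turn. Its libraries held 227, 301 and 468 exonic normalized counts in SNEB and 1414, 846 and 845 in MNEB. Every SNEB library thus lay below every MNEB library, as in 22% of all genes on exons. When any one of the 6 libraries was left out the call of PC was lost, with log2 differences of -1.42 to -1.95. No related gene was called in the comparisons of 1 with 16 wkpp or of SNEB with MNEB at 1 wkpp.

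**Figure D4:**
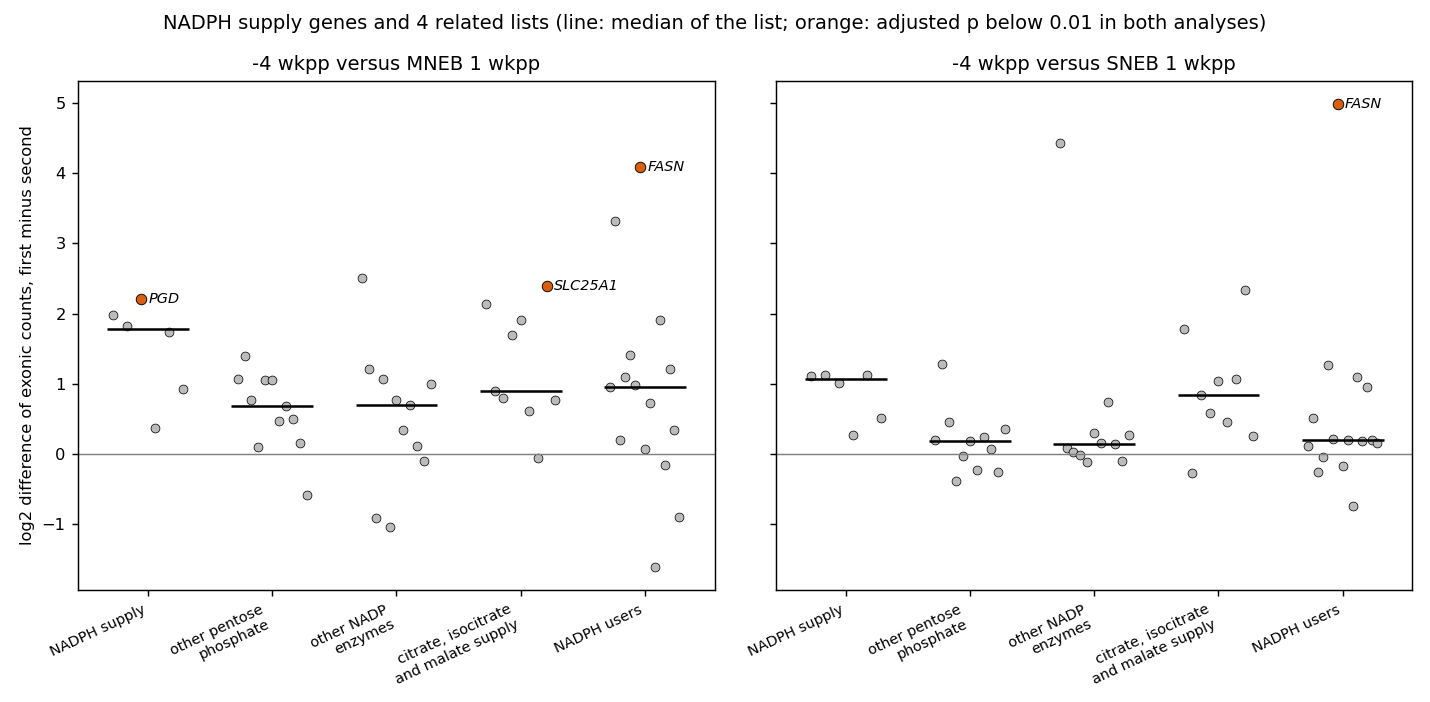
Exonic log2 differences (y axis, first group minus second) of the tested members and of the genes of 4 related lists (x axis) in the comparisons of -4 wkpp with MNEB and with SNEB at 1 wkpp; points are genes, lines list medians, and orange points genes called in both analyses. The members have medians of 1.78 and 1.07, and the points called are PGD, SLC25A1 and FASN on the left and FASN on the right, while the grey points at 3.32 (CBR1, left) and 4.43 (ALDH1L1, right) were not called.

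The genes whose profile over the 15 libraries was most like that of IDH1 were sought among 8004 genes with a mean of at least 100 exonic normalized counts, by Pearson correlation of log2 values, as a description without a test. LDHB, a subunit of lactate dehydrogenase, came first (r = 0.94), followed by ECHS1, an enzyme of mitochondrial fatty acid oxidation (0.93), QPCT (0.93), ADIRF (0.92) and DGAT2, which makes triglycerides (0.92). Of the members, TALDO1 ranked 24 with r = 0.87, PGD 116 (0.80), TKT 119 (0.80), ME1 178 (0.78) and PGLS 2630 (0.30). The 15 libraries share their 5 groups and the gap in depth between MNEB and the rest, and the level at -4 wkpp alone separates IDH1 into 2 blocks.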

How the data were processed

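Reads were trimmed (Cutadapt 1.3), aligned (TopHat2, bosTau8) and counted (HTSeq, exons and entire genes) by the authors, per the labels and the methods of the study. The 6 tables deposited by the authors hold other units than counts of single libraries: for each gene the mean normalized count over 6 libraries, and the authors' DESeq2 fold changes, errors and p-values, which were not used. The design had allowed for this. From the means, given to 15 significant digits, and the size factors they imply, whole-number counts of the 15 libraries were rebuilt exactly, apart from features with a mean above 50000 (16 exonic and 30 entire gene), and gave back every mean with no negative count. Libraries were assigned to groups by the tables in which they recur.

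Each comparison was fitted with limma 3.58.1 (voom weights, R 4.3.3) on its 6 libraries, with median of ratios scaling and a mean normalized count of at least 10, and adjusted by Benjamini-Hochberg over all genes. Levels are over all 15 libraries. The fit and the rebuilding were tested on simulated data. No lengths or coordinates of the build were at hand, so levels are not compared between genes. The genes named are the members, genes of the lists that were called, and the genes most like IDH1, beside markers and 2 uncalled genes of the list plot (CBR1 and ALDH1L1) picked after their values were seen; the members and lists were chosen with earlier results of these data known. Scaling, filter, pseudocount (1 and 10), single libraries left out, and 1 fit over all groups were tried as alternatives.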

Additional observations from a re-analysis of the deposited data

Results flagged for a closer look

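Spike-in RNAs, which no comparison of genes used, made up as much as 63.7% of exonic reads in an MNEB library (library 3 at 1 wkpp), above the 3.69 to 10.0% of the libraries at -4 wkpp. The amount of spike-in added to each library is not given in the sources used here, and whether the share bears on the members was not tested.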

How the results depend on the processing

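Of the differences of single members and related genes recomputed under settings other than leaving out 1 library, 416 kept their direction and side of the threshold, 17 passed it newly, 9 no longer passed and 3 turned; without single libraries, 279 kept both, 1 passed newly, 27 no longer passed and 11 turned. For -4 wkpp against MNEB at 1 wkpp, the 1 member called became 5 on exonic counts alone, 4 at adjusted p below 0.05, 3 with total counts as library sizes, 2 with the trimmed mean of M values, 0 without the filter on low counts, 2 on log2 counts plus 1, 2 on log2 counts plus 10, 3 in one fit over all 5 groups, 0 in that fit without the 4 shallow MNEB libraries (chosen after seeing the data, and leaving 1 library in each MNEB group) and 0 to 2 without single libraries. The 178 genes called in all became 1732, 1053 and 63 on exons alone, at 0.05 and without the filter, 1056 in one fit and 0 to 197 without single libraries. For -4 wkpp against SNEB at 1 wkpp, the 4 genes became 54 on exons alone, 57 at 0.05, 0 with total counts, 10 and 9 on log2 counts plus 1 and plus 10, 24 in one fit and 0 to 83 without single libraries. Between SNEB and MNEB at 1 wkpp, 0 became 213 on exons alone, 49 at 0.05, 303 in one fit, 0 in that fit without the shallow libraries, and 0 to 443. At 16 wkpp, 1 member passed on exons alone and 1 at 0.05, and the 367 genes became 1066 and 1343, 489 in one fit, 10 in that fit without the shallow libraries, and 33 to 109. The cause was not tested.

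Some differences turned in sign under the settings recomputed, and none of these was called; scaling on spike-ins, given as a shift and not refitted, would also turn the called differences of PC, TNNT3 and ROBO4 at 16 wkpp. On entire gene counts, MNEB 1 against 16 wkpp gave 0.24 for ME1 and 0.10 for PGLS, and the difference of the NEB groups in change gave -0.65 for ME1. Without single libraries, SNEB 1 against 16 wkpp gave -0.2019 to 0.3776 for IDH1 and -0.3571 to 0.0222 for ME1, and SNEB against MNEB gave -0.01484 to 0.3163 for PGLS at 1 wkpp and, at 16 wkpp, -0.3652 to 0.08104 for IDH1, -0.1574 to 0.2073 for ME1 and -0.07363 to 0.271 for TKT. The difference in change gave -0.3837 to 0.3127 for PGD and -0.315 to 0.01406 for PGLS. No paired analysis was possible because the rebuilt libraries carry no replicate number that ties them to the labels or to a cow, although the libraries at 1 and 16 wkpp share cows; what pairing would do to the comparisons of these weeks was not tested. The 3 libraries in each group, and 52 exonic reads of ME1 at the lowest, limit what could be called.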
